A study of Mus musculus with 6 samples.

Results

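Amino acid catabolism enzymes take apart the amino acids that the diet and protein turnover bring to the liver. A list of 39 such genes was read in diploid and tetraploid hepatocytes: the tyrosine, tryptophan, branched-chain, sulphur, glycine, proline and histidine routes, the shared transaminases with glutamate dehydrogenase, and a lysine and an amine enzyme. A gene was taken as measured when a probe set on the array carried its symbol and no other, and the brightest such probe set by its mean intensity stood for it. That found 38 of the 39 genes, of 12393 genes named in this way. Amt, the aminomethyltransferase of the glycine cleavage system, had no such probe set and was not analysed here. All 38 were bright enough to be among the 9295 genes tested, which left out the dimmest 25% of genes.

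The samples were primary hepatocytes from C57BL/6 mice of wild-type genotype at 3 weeks of age, stained fresh with the DNA dye Hoechst 33342. Flow cytometry separated a diploid fraction from a tetraploid fraction, which has double the DNA content, and RNA was taken straight after the sort. Each fraction was measured on 3 Affymetrix arrays, called biological replicates in the labels. Separate mice are not named for them in the labels, so the errors measure the spread between these arrays, which may be partly technical. No cells were treated, cultured or genetically altered in either fraction.

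The liver is the main site for the breakdown of most amino acids, while branched-chain amino acids first lose their nitrogen largely in muscle and reach the liver as keto acids. A transaminase or a dedicated oxygenase, lyase or dehydrogenase opens each route, the nitrogen passes through glutamate to ammonia and urea, and the carbon skeleton ends in glucose or ketone precursors. Many of the opening enzymes, tyrosine aminotransferase first among them, are induced by glucocorticoids and glucagon in fasting. The routes are also unevenly spread along the liver lobule: histidine breakdown is a periportal function, and ornithine aminotransferase is kept in the pericentral cells.

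Levels are given as log2 of the deposited array intensity, and a difference is the tetraploid mean minus the diploid mean on that scale, so that 1 unit is a doubling. The arrays were on a common scale, so a difference is in a gene's share of the RNA, and RNA per cell was not measured. Each difference comes with a standard error (SE) and a p-value from limma, fitted across all genes tested. None of the 38 enzymes passed an adjusted p of 0.05 in limma, and the smallest adjusted p among them was 0.506. No gene of the 9295 did either (0%), and the smallest adjusted p of any gene was 0.211. At an unadjusted p under 0.05, 2 enzymes were higher in tetraploid cells, Mccc2 and Aldh4a1, which is 5.26% of the 38 against 2.32% of all genes tested. No enzyme was lower at that threshold, against 3.85% of all genes.

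Counted by arrays alone, 4 enzymes (10.5%) had all 3 tetraploid values above all 3 diploid values, where 5.22% of all genes did. These were Gstz1, Mccc1, Mccc2 and Aldh4a1. Another 4 (10.5%) had all tetraploid values below the diploid ones, where 7.08% of all genes did, and these were Dmgdh, Ftcd, Uroc1 and Gnmt. The mean was lower in tetraploid cells for 25 enzymes (65.8%) and higher for 13 (34.2%), beside 52.2% and 47.8% of all genes. The median difference of the 38 was -0.017, and that of all genes was -0.0064. The span ran from -0.26 for Got1 to 0.39 for Mccc2.

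**Figure D1:**
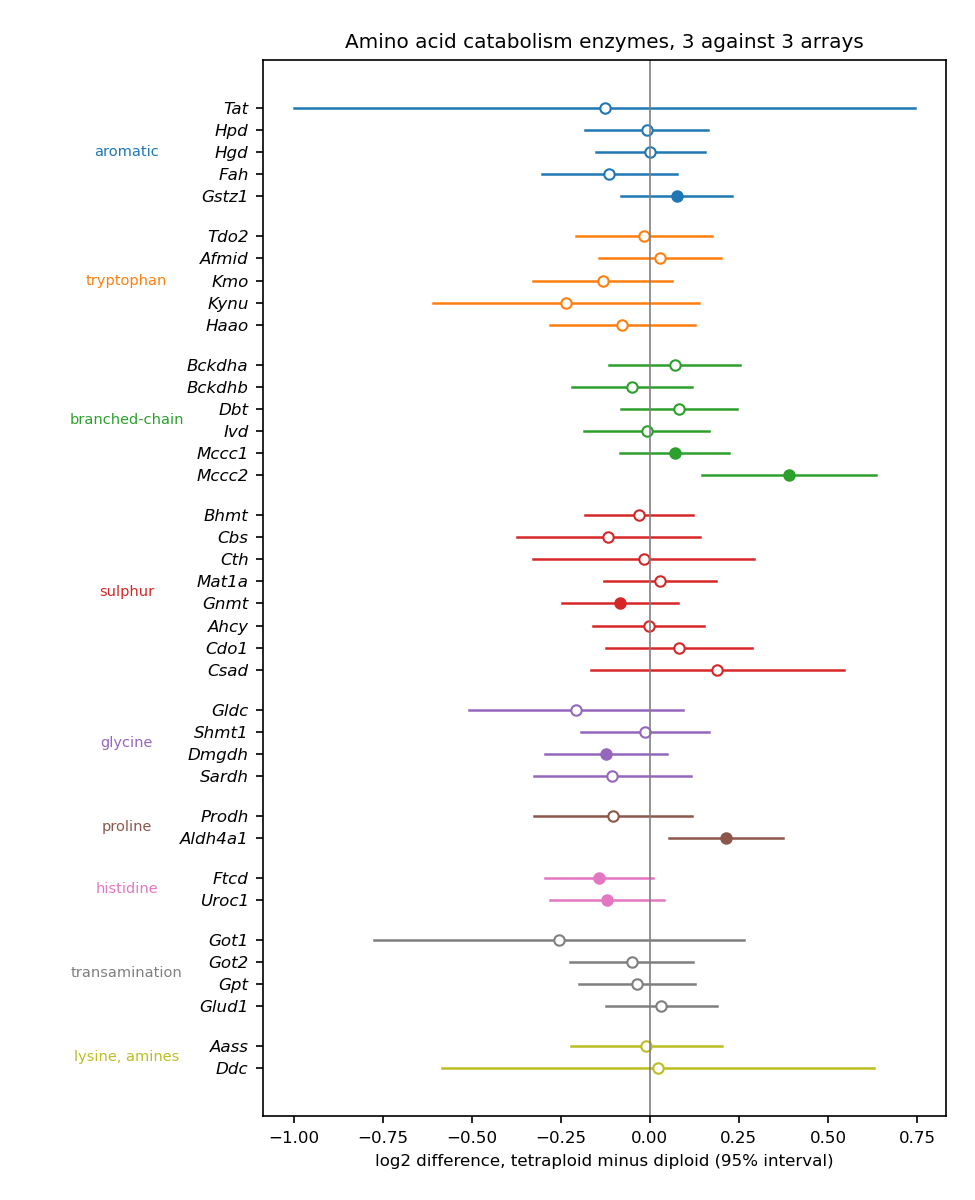
Difference of each of the 38 enzymes between fractions (log2, tetraploid minus diploid, dots) with its 95% interval (lines), from limma on 3 against 3 arrays, coloured by amino acid group. Filled dots are the 8 enzymes whose fractions did not overlap, and the intervals of 2 enzymes, Mccc2 and Aldh4a1, lie wholly above 0.

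The intervals bound how far the array readings of the fractions could differ. For 19 of the 38 enzymes (50%) the whole 95% interval lay within a 1.2-fold change in either direction, as it did for 31.5% of all genes tested. Within a 1.5-fold change lay 33 enzymes (86.8%), beside 92.4% of all genes. The 5 whose interval reached beyond 1.5-fold were Tat, Kynu, Got1, Ddc and Mccc2. By brightness the enzymes ranked from 12 (Bhmt) to 7948 (Kynu) among the genes tested, most of them in the brighter part. The part of brightness in the widths of the 95% intervals was not tested. These intervals treat the arrays as unpaired. With the replicate number as a block, as described below, the SE of Tat was 0.096 instead of 0.37, and that of Got1 0.17 instead of 0.22. For Ddc and Kynu it stayed at 0.26 and 0.16, and for Mccc2 it was 0.12 instead of 0.10. The replicate number does not join the closest arrays. Over the enzymes, deviations of diploid 3 from its fraction mean correlated at 0.96 with those of tetraploid 2 and at -0.21 with tetraploid 3. This block therefore cannot show the SE that pairing the closest arrays would give.

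The promoters of the 4 enzymes on which the proline, leucine and histidine results turn are shown here, as RefSeq (build GRCm38.p6) gives them, up to 120 bases before the start site. Bases inside the gene's outermost annotated span were left out, 23 for Aldh4a1 and 50 for Uroc1, whose listed start lies within it. Capitals mark 4 motifs searched on both strands: the TATA box (TATAAA), the CCAAT box (CCAAT, or ATTGG when read from the other strand), an HNF1 half-site (GTTAAT) and an HNF4 core (CAAAGTCCA).
Mccc2 (chr13:100015640-100015759, minus strand): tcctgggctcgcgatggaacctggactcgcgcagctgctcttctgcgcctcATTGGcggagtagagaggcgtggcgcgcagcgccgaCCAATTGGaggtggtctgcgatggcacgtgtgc
Aldh4a1 (chr4:139622774-139622870, plus strand): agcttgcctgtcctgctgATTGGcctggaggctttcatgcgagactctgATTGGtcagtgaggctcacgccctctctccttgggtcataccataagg
Ftcd (chr10:76575528-76575647, plus strand): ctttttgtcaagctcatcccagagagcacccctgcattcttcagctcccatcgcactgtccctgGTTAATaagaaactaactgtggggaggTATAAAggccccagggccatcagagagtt
Uroc1 (chr6:90333169-90333238, plus strand): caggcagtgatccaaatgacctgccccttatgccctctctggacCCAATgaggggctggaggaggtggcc

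The Mccc2 sequence holds 3 CCAAT matches, of which the pair nearest the start overlap as one palindrome, and Aldh4a1 holds 2, at 102 and 71 bases before the start. Ftcd holds a TATA box at 29 bases and an HNF1 half-site at 56 bases before the start, and Uroc1 a single CCAAT match. Counts over genes used all 120 bases. Of the 38 enzymes, 32 had a promoter entry, and 19 of them (59.4%) held CCAAT, beside 28.5% of the 7512 genes tested with an entry and 21.3% of all 32851 promoters. The TATA box was in 2 of the 32 (6.25%), Ftcd and Ddc, beside 4.55% of the genes tested and 6.34% of all promoters. The HNF1 half-site was in 2 (6.25%), Ftcd and Haao, beside 2.38% and 3.00%. None of the 32 held the HNF4 core, beside 0.319% and 0.216%. These motifs were chosen after the expression values were seen, and a match is a run of letters, not a shown binding site.

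The branched-chain enzymes had the highest group median, 0.070 over 6 enzymes, of which 4 had a higher mean in tetraploid cells. The largest difference of the 38 was in Mccc2, the beta subunit of methylcrotonyl-CoA carboxylase, a biotin enzyme late in leucine breakdown. Its only probe set was in the dimmer part of the genes tested, at rank 6158 from the brightest of 9295. It read 6.63, 6.76 and 6.93 on diploid replicates 1, 2 and 3, and 7.21, 7.25 and 7.02 on the tetraploid ones. Every tetraploid array was above every diploid array, and the closest pair, tetraploid 3 and diploid 3, were near each other. The means were 6.77 ± 0.15 (SD) and 7.16 ± 0.13, a difference of 0.39 ± 0.10 (SE) or 1.31-fold, with an unadjusted p of 0.0064 and an adjusted p of 0.506 in limma. Its partner subunit Mccc1, which carries the biotin, had a difference of 0.070 ± 0.065, also without overlap between fractions. Mccc1 read between 10.44 and 10.49 on the diploid arrays and between 10.51 and 10.57 on the tetraploid ones.

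The branched-chain ketoacid dehydrogenase complex commits all 3 branched-chain keto acids to oxidation. Its E1 alpha subunit, Bckdha, read 10.41, 10.40 and 10.46 in diploid cells and 10.39, 10.60 and 10.49 in tetraploid cells. The lowest value of all was tetraploid 1, so the fractions overlapped, and the difference was 0.069 ± 0.079. The E1 beta subunit Bckdhb stood at -0.050 ± 0.072, and the E2 core Dbt at 0.081 ± 0.070. Ivd, isovaleryl-CoA dehydrogenase, which acts just before the methylcrotonyl step, stood at -0.0084 ± 0.075. A dimmer second probe set of Ivd gave -0.17, with every tetraploid array below every diploid one. Of 15 further genes of these routes tested, 10 had a higher mean, none passed an unadjusted p of 0.05, and the smallest p belonged to Bckdk, the kinase that switches the complex off, at 0.16 ± 0.073 with an adjusted p of 0.81 in limma.

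Proline and ornithine both reach glutamate through pyrroline-5-carboxylate, and the differences of their enzymes were not all of one sign. Aldh4a1, the mitochondrial dehydrogenase that turns pyrroline-5-carboxylate into glutamate, read 8.71, 8.64 and 8.69 on the diploid arrays and 8.94, 8.86 and 8.88 on the tetraploid arrays. The fractions were well apart, with SDs of 0.039 and 0.043. The difference was 0.21 ± 0.068, or 1.16-fold, with an unadjusted p of 0.0151 and an adjusted p of 0.671 in limma. Without diploid replicate 2 the unadjusted p was 0.0548. Prodh, proline dehydrogenase, which opens the proline route, read 10.79, 10.60 and 10.68 in diploid cells and 10.72, 10.59 and 10.45 in tetraploid cells. Those ranges overlapped, and the difference was -0.10 ± 0.10.

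Oat, ornithine aminotransferase, is no member of the list but feeds the substrate of Aldh4a1. It read 11.74, 11.70 and 11.59 in diploid cells and 11.90, 11.88 and 12.04 in tetraploid cells, with no overlap. Its difference was 0.26 ± 0.080 with an unadjusted p of 0.0125. Oat is also a pericentral marker, and 16 other pericentral markers had a median difference of 0.11, with 14 higher, 6 of them without overlap, and 4 at an unadjusted p under 0.05. Glul at -0.11 and Rhbg at -0.061 were lower, with overlap. Over all genes tested, 5.22% were higher without overlap and 2.32% were higher at an unadjusted p under 0.05. The summed intensity of the 16 was 95887.5 to 99585.8 on the diploid arrays and 104423 to 111305 on the tetraploid arrays. The part of this marker difference in the Oat and Aldh4a1 values was not tested.

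Histidine breakdown runs through 4 enzymes in a row, Hal, Uroc1, Amdhd1 and Ftcd. By the probe set used, all 4 read lower on every tetraploid array than on any diploid array, as 7.08% of all genes tested did. Hal and Amdhd1 were added to the listed enzymes, Amdhd1 after its values were seen, so the 4 are not a set fixed beforehand. Ftcd, the folate-dependent enzyme that ends the route in glutamate, read 12.24, 12.22 and 12.19 in diploid cells and 12.08, 12.09 and 12.05 in tetraploid cells. The gap between the fractions was wider than the spread within either. The difference was -0.14 ± 0.065, or 0.905-fold, with an unadjusted p of 0.0607 and an adjusted p of 0.81 in limma. Uroc1, urocanase, the second step, read 12.10, 12.15 and 12.07 in diploid cells and 11.98, 11.95 and 12.03 in tetraploid cells. Its fractions were separate by a small margin, with a difference of -0.12 ± 0.068 and an adjusted p of 0.843 in limma. A dimmer second probe set of Uroc1 gave -0.15, with overlap between the fractions.

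The other 2 enzymes of the route were not on the list of 39. Hal, histidine ammonia-lyase, the opening step, read 12.50, 12.31 and 12.20 in diploid cells and 12.03, 11.91 and 11.88 in tetraploid cells. It had the largest difference of the route, -0.39 ± 0.10, or 0.761-fold, with an unadjusted p of 0.00384 and an adjusted p of 0.412 in limma. Amdhd1, imidazolonepropionase, named here after its values were seen, stood at -0.080 ± 0.068. The count of 4 without overlap was 3 when probe sets shared between transcripts were left out or the arrays were centred on their medians, and the mean was lower for all 4 under every alternative run.

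Hal is also a periportal marker. Of 12 other periportal markers tested, 10 had a lower mean in tetraploid cells, 8 without overlap and 7 at an unadjusted p under 0.05, with a median of -0.27. Over all genes tested, 7.08% were lower without overlap and 3.85% were lower at that threshold. The summed intensity of the 12 was 97561.5 to 110813 on the diploid arrays and 88060.8 to 99670.7 on the tetraploid arrays, so the ranges overlapped. The sums rest mostly on the brightest markers: Cps1, Arg1 and Pck1, at -0.034, -0.016 and 0.026, and Cyp2f2, at -0.32. The part of this marker difference in the histidine values was not tested. In bulk fractions, fewer cells of a kind and a smaller share of a gene in the RNA of each cell cannot be told apart. Of 13 markers of hepatocytes in general, none was without overlap, and their median was 0.010.

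**Figure D2:**
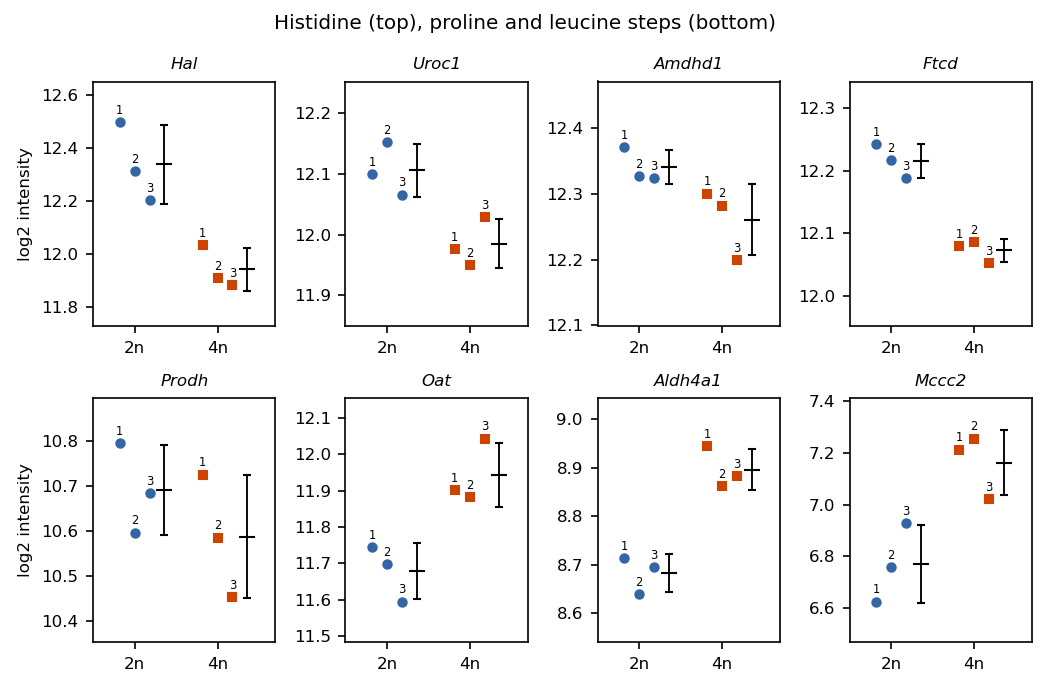
Log2 intensity on each array (points, numbered by replicate) with the mean ± SD of each fraction (2n, diploid; 4n, tetraploid) for the 4 histidine enzymes and for the proline, ornithine and leucine enzymes, each panel on its own axis. The histidine enzymes, Oat, Aldh4a1 and Mccc2 show fractions that do not overlap, and Prodh shows fractions that do.

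The 4 enzymes tested for glycine and its methylated relatives had a median of -0.11, with all 4 means lower by the probe set used. The smallest p was that of Dmgdh, the mitochondrial dimethylglycine dehydrogenase that follows betaine use. It read 12.28, 12.25 and 12.22 in diploid cells and 12.04, 12.14 and 12.21 in tetraploid cells. Tetraploid 3 lay just below diploid 3, and the difference was -0.12 ± 0.073 with an adjusted p of 0.848 in limma. Gldc, the decarboxylase that opens the glycine cleavage system, read 11.24, 11.19 and 10.88 in diploid cells and 10.99, 10.69 and 11.00 in tetraploid cells. Diploid 3 and tetraploid 2 were the low arrays of their fractions, so the ranges overlapped, and the difference was -0.21 ± 0.13. Sardh, sarcosine dehydrogenase, stood at -0.11 ± 0.094, and Shmt1, the cytosolic serine hydroxymethyltransferase, at -0.014 ± 0.077. The sign of Shmt1 turned in 5 of 15 alternatives, and a dimmer probe set of it gave 0.16, with every tetraploid array above every diploid one. Of 10 further genes of these routes tested, Gatm, the amidinotransferase that opens creatine synthesis, had an unadjusted p under 0.05, at 0.39 ± 0.13, with overlapping fractions and an adjusted p of 0.757 in limma.

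The 8 enzymes of sulphur amino acid metabolism had a median of -0.011, with 3 means higher and 5 lower. Mat1a, which makes S-adenosylmethionine from methionine in adult hepatocytes, read 14.09, 14.17 and 14.08 in diploid cells and 14.12, 14.13 and 14.18 in tetraploid cells. The fractions overlapped throughout and the difference was 0.028 ± 0.068. Bhmt, which remakes methionine from homocysteine with betaine, read 14.91, 14.93 and 14.90 in diploid cells and 14.91, 14.88 and 14.86 in tetraploid cells. Its arrays differed little in either fraction, and the difference was -0.030 ± 0.065. Cbs, cystathionine beta-synthase, which commits homocysteine to cysteine, read 11.70, 11.39 and 11.36 in diploid cells and 11.44, 11.25 and 11.41 in tetraploid cells. Diploid 1 was high and tetraploid 2 low, and the difference was -0.12 ± 0.11. A dimmer second probe set of Cbs gave -0.23, with every tetraploid array below every diploid one.

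Gnmt, the methyltransferase that uses up surplus S-adenosylmethionine, had no overlap by the narrowest of margins, with diploid values down to 14.36, tetraploid values up to 14.36 and a difference of -0.085 ± 0.070. Ahcy, which splits S-adenosylhomocysteine, stood at -0.0034 ± 0.067. Cth, cystathionine gamma-lyase, stood at -0.018 ± 0.13. Past cysteine, Cdo1, the dioxygenase that starts its oxidation, stood at 0.081 ± 0.088. Csad, the decarboxylase toward taurine, read 8.63, 8.06 and 8.33 in diploid cells and 8.67, 8.57 and 8.35 in tetraploid cells. Diploid 2 was low and the fractions overlapped, with a difference of 0.19 ± 0.15. Of 10 further genes tested, Mtrr, the reductase that keeps methionine synthase active, had an unadjusted p under 0.05, at 0.20 ± 0.078, without overlap and with an adjusted p of 0.785 in limma.

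The 5 enzymes of tyrosine breakdown had a median of -0.0090, and its opening enzyme, Tat, is described with the arrays that set it apart. Hpd, which makes homogentisate, read 14.23, 14.10 and 14.09 in diploid cells and 14.15, 14.09 and 14.15 in tetraploid cells. The ranges overlapped and the difference was -0.0090 ± 0.074. Hgd, homogentisate dioxygenase, stood at 0.0013 ± 0.066. Gstz1, maleylacetoacetate isomerase, had no overlap between fractions, with diploid arrays from 12.23 to 12.27, tetraploid arrays from 12.28 to 12.37 and a difference of 0.075 ± 0.067. Fah, the last enzyme, whose loss causes tyrosinaemia, read 13.36, 13.26 and 13.26 in diploid cells and 13.09, 13.16 and 13.29 in tetraploid cells. Tetraploid 3 lay inside the diploid range, and the difference was -0.11 ± 0.081. Of 4 further genes tested, Mif, a cytokine with tautomerase activity on phenylpyruvate, had an unadjusted p under 0.05, at -0.24 ± 0.085, without overlap and with an adjusted p of 0.757 in limma.

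The 5 tryptophan enzymes had a median of -0.078, with 4 means lower. Tdo2, the tryptophan dioxygenase that opens the kynurenine route in liver, read 14.39, 14.42 and 14.56 in diploid cells and 14.37, 14.53 and 14.42 in tetraploid cells. The values interleaved and the difference was -0.016 ± 0.082. Kmo, the kynurenine hydroxylase of the outer mitochondrial membrane, read 11.34, 11.52 and 11.48 in diploid cells and 11.21, 11.37 and 11.37 in tetraploid cells. Only diploid 1 lay within the tetraploid range, and the difference was -0.13 ± 0.084. Afmid, the formamidase, stood at 0.029 ± 0.074, Kynu, kynureninase, at -0.24 ± 0.16, and Haao, which makes the quinolinate precursor, at -0.078 ± 0.087. None of 5 further genes tested had an unadjusted p under 0.05, and the smallest p was that of Qprt, which carries quinolinate toward NAD, at -0.091 ± 0.081.

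The transaminases and glutamate dehydrogenase join all routes, and their 4 genes had a median of -0.044. Got1, the cytosolic aspartate aminotransferase, read 11.87, 12.36 and 12.03 in diploid cells and 11.40, 11.82 and 12.28 in tetraploid cells. Its arrays were scattered within both fractions, and the difference of -0.26 ± 0.22 was the lowest of all members. Without tetraploid 1 it was -0.040, and without tetraploid 3 it was -0.48. Got2, the mitochondrial form, read 12.50, 12.49 and 12.48 in diploid cells and 12.38, 12.39 and 12.54 in tetraploid cells. Its difference was -0.051 ± 0.074, while a dimmer second probe set of Got2 gave 0.26, so the direction depends on the probe set.

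Gpt, the cytosolic alanine aminotransferase, read 12.39, 12.30 and 12.31 in diploid cells and 12.27, 12.27 and 12.35 in tetraploid cells. Tetraploid 3 lay inside the diploid range and the difference was -0.037 ± 0.069. Glud1, which frees ammonia from glutamate, read 13.74, 13.78 and 13.76 in diploid cells and 13.84, 13.76 and 13.77 in tetraploid cells, with a difference of 0.032 ± 0.067. Among 3 further genes the smallest p was that of Asrgl1, an asparaginase, at -0.063 ± 0.089.

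Aass, the bifunctional enzyme that opens lysine breakdown, read 12.55, 12.79 and 12.61 in diploid cells and 12.56, 12.62 and 12.74 in tetraploid cells. The values interleaved, and the difference was -0.010 ± 0.091. Ddc, the aromatic amino acid decarboxylase, stood at 0.023 ± 0.26, the second widest error of the list after Tat. Of 3 further genes, Maoa, monoamine oxidase A, had the smallest p, at -0.10 ± 0.075.

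By place in the cell, the 23 cytosolic enzymes had a median of -0.018, with 7 means higher, and the 15 mitochondrial ones a median of -0.010, with 6 higher. Both enzymes with an unadjusted p under 0.05, Mccc2 and Aldh4a1, are mitochondrial. Over all routes, 55 further enzymes were tested: 26 had a higher and 29 a lower mean, and their median was -0.0042. Of these, 3 were higher at an unadjusted p under 0.05 (Oat, Mtrr and Gatm), where 2.32% of all genes tested were. Lower at that threshold were 2 (Hal and Mif), where 3.85% of all genes were, and none passed an adjusted p of 0.05 in limma. Without overlap, 6 were higher and 9 lower, beside 5.22% and 7.08% of all genes.

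**Figure D3:**
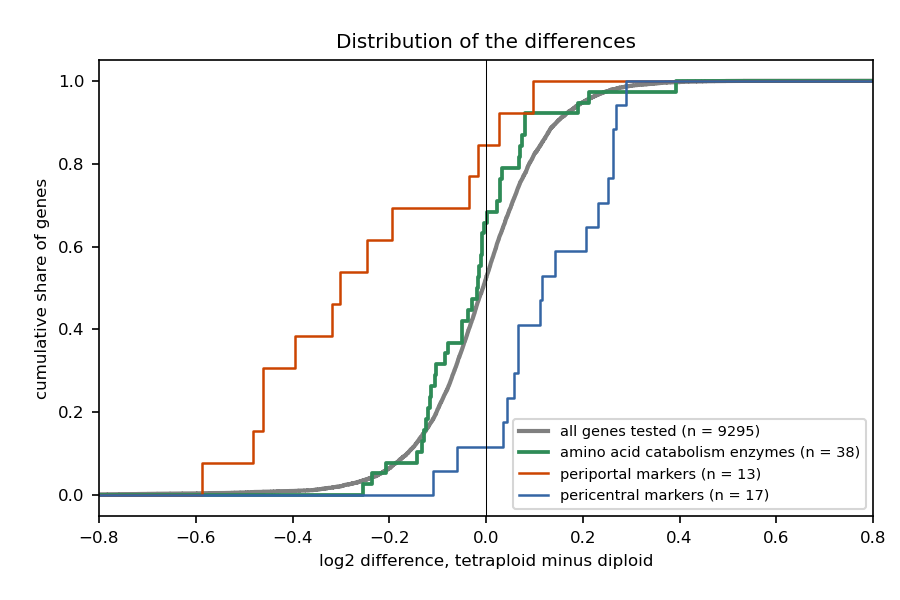
Cumulative share of genes (vertical axis) at or below each log2 difference between fractions (horizontal axis, cropped at 0.8 either side) for all genes tested, the 38 enzymes, 13 periportal markers with Hal and 17 pericentral markers with Oat. The enzymes stay near the curve of all genes, with the periportal curve to the left and the pericentral curve to the right over most of their range.

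In 33 of the 38 enzymes the range within at least 1 fraction exceeded the difference between the means. The larger range of the fractions often exceeds a difference of means, and the share over all genes was not counted. The count is therefore not read as a trait of the list. The median SD within fractions was 0.070 for the 38, most of them bright, against 0.12 for all genes, and 9 enzymes were above the latter. Tat, tyrosine aminotransferase, had the largest, 0.61, which 0.495% of all genes tested exceeded. It read 12.58, 13.46 and 13.55 in diploid cells and 12.29, 13.52 and 13.41 in tetraploid cells. Replicate 1 was far below the other arrays in both fractions, and the difference between fractions was -0.13 ± 0.37.

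The same replicate was low for some other fasting-response genes, picked here after their values were seen, and not for all of them. Pck1, the opening enzyme of gluconeogenesis, read 12.93, 13.88 and 13.76 in diploid cells and 12.98, 13.95 and 13.72 in tetraploid cells. Klf15, a transcription factor that drives amino acid breakdown, read 10.20, 10.82 and 11.03, then 10.25, 11.06 and 10.87. Gpt2, the mitochondrial alanine aminotransferase, read 11.06, 11.77 and 12.00, then 11.21, 12.00 and 11.69. In all 3, as in Tat, replicate 1 was the lowest array of each fraction, and the fraction means were close, with differences of 0.026 ± 0.31, 0.041 ± 0.26 and 0.019 ± 0.28. Slc38a2, an amino acid importer, and the regulators Ppargc1a, Cebpb and Foxo1 also had their lowest value on replicate 1 in both fractions. G6pc, the glucose-6-phosphatase that ends gluconeogenesis, did not: it read 12.34, 12.90 and 12.10, then 12.22, 12.02 and 12.85, lowest on diploid 3 and tetraploid 2. Fgf21, a hormone the liver releases in fasting, was dim, with 5.57, 5.57 and 6.00, then 5.40, 5.75 and 5.37. Its lowest arrays were diploid 2 and tetraploid 3, but replicate 1 was nearly as low in both fractions.

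A second set was low on diploid 3 and tetraploid 2. Ddc read 10.75, 10.73 and 9.93 in diploid cells and 10.71, 10.06 and 10.71 in tetraploid cells, an SD within fractions of 0.42. Cth read 13.49, 13.59 and 13.15, then 13.43, 13.23 and 13.53. Kynu read 6.10, 5.94 and 5.59, then 5.75, 5.38 and 5.79, and Gldc, given above, had the same low arrays. Onecut1, a hepatocyte transcription factor named after its values were seen, read 8.10, 8.47 and 6.90, then 8.10, 6.67 and 8.27. In each of these 5 genes the low diploid array and the low tetraploid array carry different replicate numbers. What sets these arrays apart is not given in the labels.

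**Figure D4:**
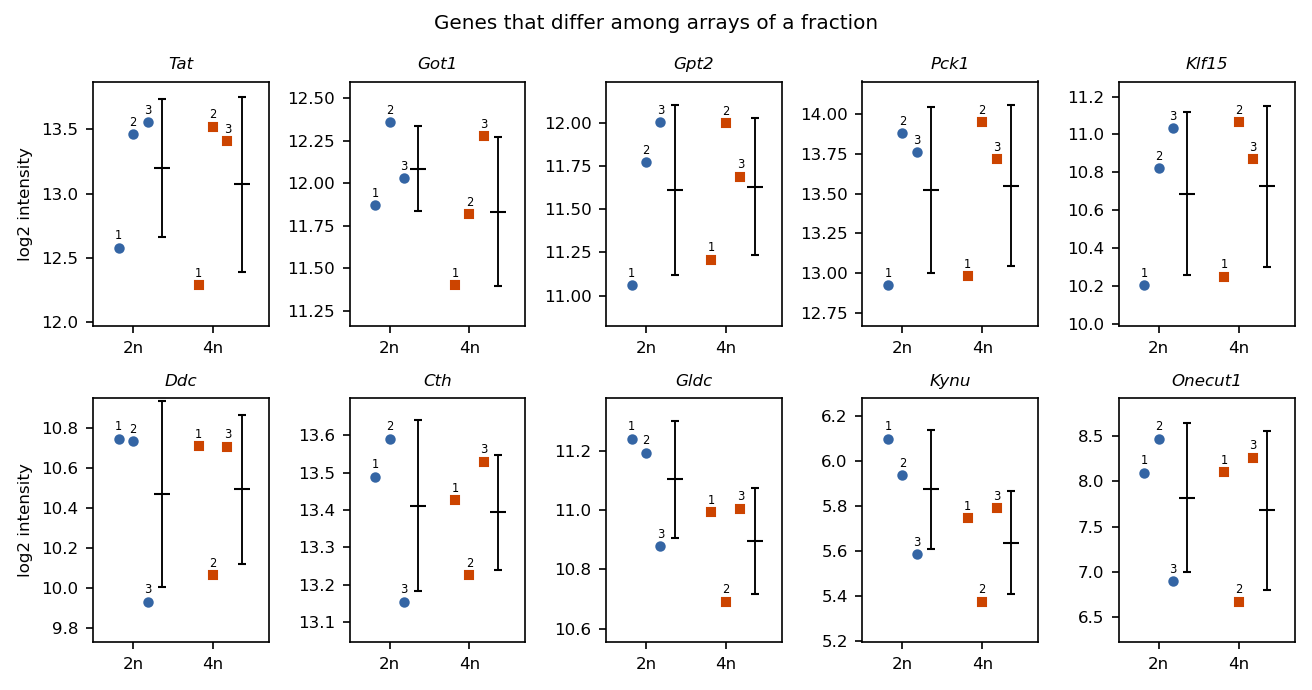
Log2 intensity on each array (points, numbered by replicate) with the mean ± SD of each fraction (2n, diploid; 4n, tetraploid) for 10 genes that varied within fractions, each panel on its own axis. Tat, Gpt2, Pck1 and Klf15 are lowest on replicate 1 of both fractions, and Ddc, Cth, Gldc, Kynu and Onecut1 on diploid 3 and tetraploid 2.

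Over the whole list, tetraploid 1 held the lowest of the 6 values for 12 enzymes and tetraploid 2 for 10, while diploid 1 held the highest for 15. The same was not counted over all genes, so these counts are not read as a trait of the list. In the map of all enzymes by array most rows are pale, and the strong colours lie in Tat, Got1, Ddc, Kynu, Csad and Mccc2.

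**Figure D5:**
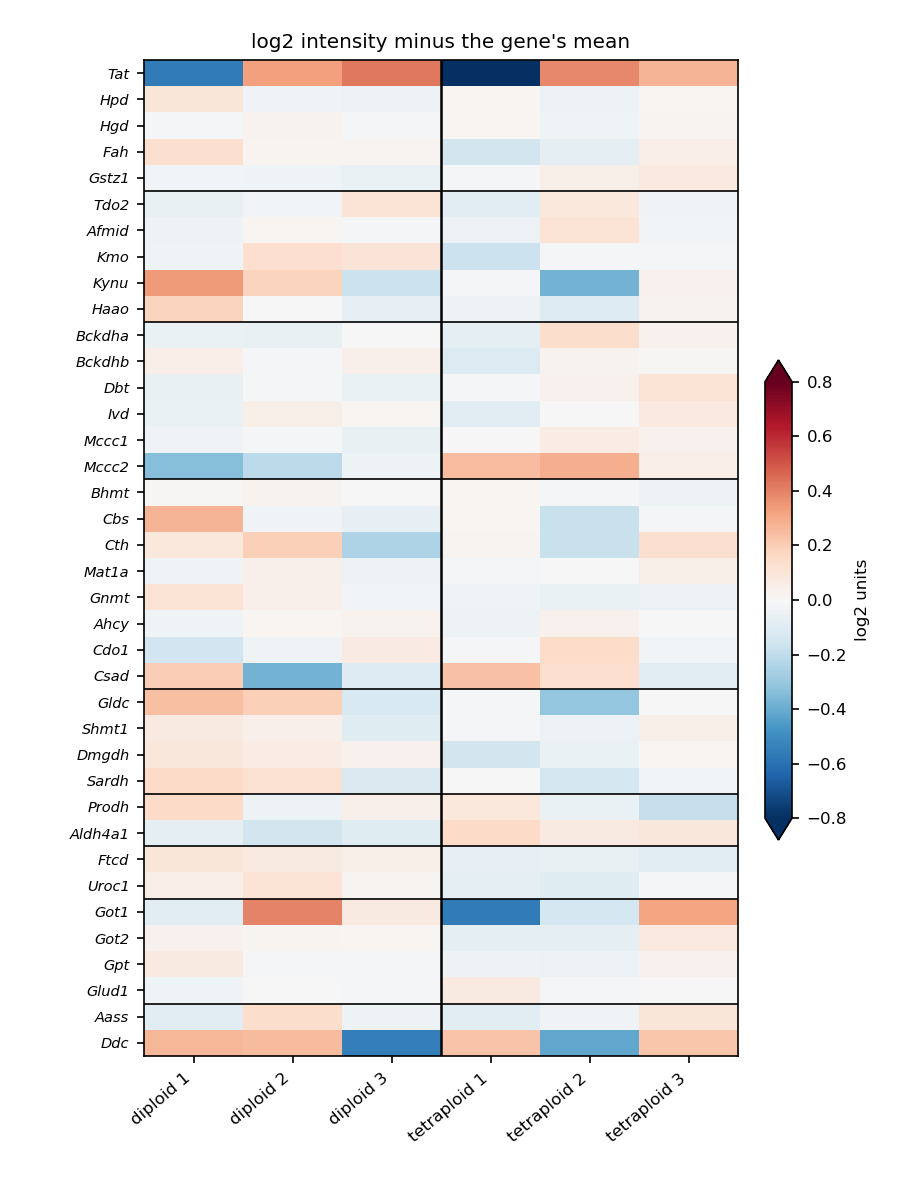
Log2 intensity minus the gene's mean over 6 arrays (colour, from -0.8 to 0.8, with values beyond shown at the end colours) for the 38 enzymes (rows, in amino acid groups parted by lines) on each array (columns, fractions parted by the thick line). Tat is low on replicate 1 of both fractions, Ddc on diploid 3 and tetraploid 2, and Mccc2 changes colour at the line between fractions.

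Hepatocyte markers were read in both fractions, with sums of 333434 to 341027 on the diploid and 335921 to 340248 on the tetraploid arrays. These sums rest on very bright genes such as Alb, which read 15.57 on every tetraploid array with an SD of 0. They therefore cannot show how alike the fractions are. Of 15 endothelial markers, 4 were dim, and 9 of the 11 tested had a higher mean in tetraploid cells, with a median of 0.20 and summed intensities of 1246 to 1378 and 1354 to 1595. Kupffer cell and macrophage markers had 4 of 11 dim and a median of -0.092, and lymphocyte markers had 7 of 10 dim. The part of these cells in the enzyme values was not tested. The array medians were 86.4 to 89.2 in linear intensity, and the number of arrays, 3 a fraction, limits the precision of every difference given.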

How the data were processed

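The authors deposited linear intensity values from Affymetrix arrays of 6 samples, made with RMA, per the submitters' processing notes (version not given in the sources used here). Of 22690 probe sets, 20380 carried exactly 1 gene symbol in the platform annotation, 691 several and 1555 none. The deposited intensity was taken to log2 with no further scaling, the brightest probe set stood for each gene, and the dimmest 25% of genes were left out (log2 mean below 5.06). Fractions were compared by lmFit and eBayes of limma 3.58.1 under R 4.3.3 (ploidy alone, two-sided, Benjamini-Hochberg over 9295 genes), tested on simulated data first. Arrays correlated at 0.992 to 0.997.

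The enzymes, the gene lists and the marker lists were chosen with earlier results of these data known. Values on every array are given for enzymes with an unadjusted p under 0.05, for the smallest p in each amino acid group and for opening enzymes. Of the other pathway genes, those with an unadjusted p under 0.05, otherwise the smallest p of the group, are named. The alternatives were other filters, probe set choices, scalings, weights and variance priors, a replicate block, and leaving out each array.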

Additional observations from a re-analysis of the deposited data

How the results depend on the processing

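No enzyme passed an adjusted p of 0.05 in limma under any of 15 alternatives, and the smallest adjusted p of an enzyme was 0.471. Of 568 differences of single enzymes under these alternatives, 39 turned sign, in 12 enzymes whose main difference was at most 0.13 in size, and none of the 8 without overlap turned. Enzymes lower at an unadjusted p under 0.05 numbered 1 (Ftcd) with the lowest 40% of genes left out, with the mean of all probe sets and with a trended, robust prior, and 0 to 2 when 1 array was left out (Kynu and Gldc without diploid 3, Got1 without tetraploid 3). Those higher numbered 1 to 3, with Mccc2 alone left without diploid 2 and Csad added without diploid 1. Without overlap and with 1 array left out, 4 to 7 were higher (7 without diploid 2, 18.4% against 10.1% of all genes) and 4 to 8 lower (8, or 21.1%, without diploid 3 or tetraploid 3, against 12.5% and 14% of all genes), and with all arrays kept the lower count was 3 to 5 (3 with median centring). The median of the enzymes ranged from -0.056 (without tetraploid 3) to -0.0096. Over all genes, 0 to 1 passed the adjusted threshold with an array left out (1 without tetraploid 1), and 229 to 392 were lower at an unadjusted p under 0.05 (229 without diploid 1). Ivd at -0.090 and Got2 at 0.11 moved with the mean of all probe sets. The cause of these moves was not tested.

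Replicate numbers did not pair the arrays: deviations from the fraction means correlated at 0.57 across genes for the arrays numbered 1, at -0.20 for those numbered 2 and at -0.20 for those numbered 3. Diploid 3 correlated best with tetraploid 2 (0.69, and 0.96 over the enzymes alone) and diploid 2 with tetraploid 3 (0.38, and 0.81). With the replicate number as a block, which matches the closest arrays in 1 of the 3 pairs, 9 of all genes passed an adjusted p of 0.05 and no enzyme did, and 2 enzymes were again higher at an unadjusted p under 0.05.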

Other observations

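Amino acid transporters and the regulators of amino acid breakdown fall outside the enzyme routes. Of 12 transporters tested, 5 had a higher and 7 a lower mean in tetraploid cells, with a median of -0.052. Slc1a4, a sodium-dependent exchanger of small neutral amino acids, had the largest difference, 0.47 ± 0.18 with an adjusted p of 0.779 in limma, although diploid 2 at 7.06 exceeded tetraploid 2 at 6.90. Slc38a4 and Slc25a13, a neutral amino acid carrier of hepatocytes and the mitochondrial aspartate-glutamate carrier, were higher without overlap, at 0.16 ± 0.088 and 0.13 ± 0.083. Slc6a13, a taurine and GABA carrier, was lower without overlap, at -0.11 ± 0.068. These 3 were named after their values were seen.

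Of 15 hormone receptors and regulators, 8 had a higher and 7 a lower mean, none at an unadjusted p under 0.05. The glucagon receptor Gcgr had the smallest p, with 10.63, 10.57 and 10.65 in diploid cells and 10.45, 10.49 and 10.53 in tetraploid cells, and was the 1 regulator without overlap, at -0.13 ± 0.068 with an adjusted p of 0.839 in limma.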
